A study of Flaveria robusta and Flaveria sonorensis and Flaveria ramosissima with 24 samples.

Results

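The genes described here are the leaf transcripts whose level in control air climbed with each species of a 4-species series of Flaveria ordered from C3 to C4 photosynthesis. They were chosen by their measured levels. A gene belonged to the set if its mean over the control libraries was at least 0.5 TPM (a length-corrected transcript level relative to the library total) in F. robusta, grew from F. robusta through F. sonorensis and then F. ramosissima to F. trinervia, and reached at least 50 TPM and at least 8 times the F. robusta mean in F. trinervia. The mean log2(TPM + 1) of F. robusta also had to differ by less than 1 between low CO2 and control. Of 29562 genes in the table, 21 met all of these conditions. The climb in control air, the ratio of F. trinervia to F. robusta and the change in F. robusta are therefore descriptions and were not tested.

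Flaveria is a genus of the daisy family in which closely related species use C3, C3-C4 intermediate and C4 photosynthesis. In a C3 leaf the mesophyll fixes CO2 directly with Rubisco, and part of the carbon is lost again through photorespiration, a loss that grows when CO2 is scarce. In C3-C4 intermediates, glycine made by photorespiration is broken down mostly in the bundle sheath around the veins, where the CO2 it releases can be fixed again. In C4 leaves, phosphoenolpyruvate carboxylase of the mesophyll first binds carbon into C4 acids, which move to the bundle sheath and release CO2 there beside Rubisco. Enzymes and transporters of this cycle are known for far higher transcript levels in C4 than in C3 leaves. Among the species sampled, F. robusta has C3 photosynthesis, F. trinervia has C4 photosynthesis, and the other two, F. sonorensis and F. ramosissima, are intermediates. The table names genes only by number and no annotation was used here, so the genes below carry no name or function, and which of them belong to the C4 cycle cannot be told apart from the rest.

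The study asked how leaf transcripts of these species respond when CO2 is scarce. For each species there were 3 libraries from plants held at a CO2 setting of 100 for 2 weeks (low CO2) and 3 from plants at a setting of 380 (control), which gives 8 groups and 24 libraries, all of unmodified species and of newly expanded mature leaves. The labels give both settings in µmol m-2 s-1, a unit of light flux, and none of the sources used here says how to convert it into a CO2 concentration. All chambers ran at 200 µmol m-2 s-1 of light and 22 °C, with 16 h of light per day and 70% humidity. The labels do not say that the 3 libraries of a group came from separate plants, so p-values measure the spread between these libraries only, which may be technical. Markers of leaf cell types could not be checked without gene names.

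TPM is a level per transcript length and per library total, so it can be compared between genes, but it keeps no record of depth, and the number of reads behind a library is unknown. Summed over the 29562 genes, library totals ran between 857693 and 930239 TPM, and were lowest in F. sonorensis (857693 to 872321 TPM). Within a group, Spearman correlations between libraries were at least 0.948, and F. trinervia low CO2 replicate 2 had the lowest mean correlation with its group, 0.951. Levels of different species may in addition differ with the reference each was mapped to, which cannot be told apart from a difference in level. In whole leaves, more cells of a type and more RNA per cell cannot be told apart either.

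The rule narrowed the table in steps. A mean of at least 0.5 TPM in F. robusta control leaves was met by 15584 genes, of which 178 had control means in the order F. robusta, F. sonorensis, F. ramosissima, F. trinervia, while 583 had the reverse order. Of the 178 genes, 93 reached 50 TPM in F. trinervia, 38 of these were at least 8 times above F. robusta, and 21 were left by the limit on the change in F. robusta. That limit removed 17 genes, of which 11 were higher and 6 lower at low CO2 in F. robusta. Gene22890 lay just inside the ratio limit, with F. trinervia 10.4 times above F. robusta, and Gene05550 just outside it at 7.54 times. Gene22403 lay just inside the F. trinervia limit at 50.01 TPM, and Gene20084 just outside it at 47.42 TPM. On the change in F. robusta, Gene29481 lay just inside at -0.98 and Gene21744 just outside at 1.10, both on the log2 scale, low CO2 minus control.

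**Figure D1:**
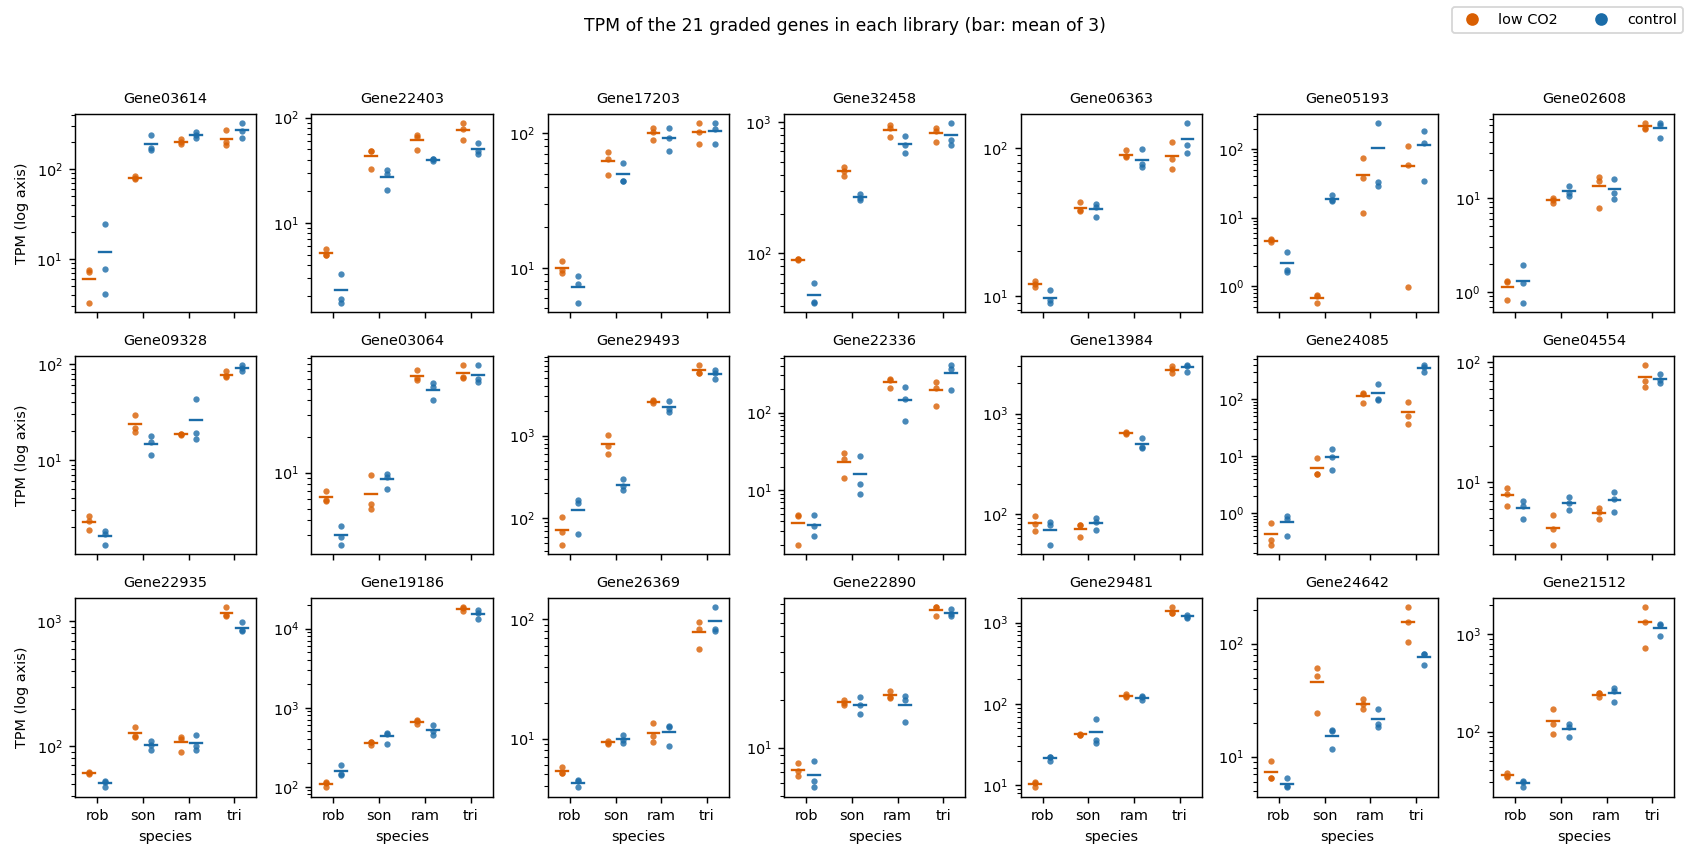
TPM of each of the 21 genes in each of the 24 libraries, one panel per gene, on a log axis, with the species along the horizontal axis (rob, F. robusta; son, F. sonorensis; ram, F. ramosissima; tri, F. trinervia). Points are libraries of low CO2 (orange, left) and control (blue, right) and bars are means of 3; Gene05193 in F. sonorensis and Gene24085 in F. trinervia are the pairs in which the low CO2 points lie far below the controls.

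The 6 genes of the set with the highest control level in F. trinervia were Gene19186, Gene29493, Gene13984, Gene29481, Gene21512 and Gene22935. Gene19186 was by far the most abundant, with 18971, 16678 and 18276 TPM in the F. trinervia low CO2 libraries, against 15901, 17329 and 13070 TPM in the F. trinervia controls. In F. ramosissima the same gene had 621, 677 and 691 TPM at low CO2 and 601, 506 and 447 TPM in control. Its largest step along the series was thus the last one, and the libraries of F. trinervia and F. ramosissima lay far apart in both treatments. Its control means along the series were 159, 433, 518 and 15434 TPM.

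Gene29493, the next in level, had control means of 127 TPM in F. robusta, 255 TPM in F. sonorensis, 2212 TPM in F. ramosissima and 5586 TPM in F. trinervia, so that the step between the 2 intermediates was the largest on the log2 scale. Gene13984 was similar in the first 2 species, with control means of 69.6 TPM in F. robusta and 81.2 TPM in F. sonorensis, and had 498 TPM in F. ramosissima and 2882 TPM in F. trinervia. The control libraries of Gene13984 overlapped, with 69.5 to 91.9 TPM in F. sonorensis and 48.4 to 83.1 TPM in F. robusta. Gene29481 had control means of 21.5, 45.0, 120 and 1194 TPM along the series, Gene21512 of 29.4, 106, 247 and 1164 TPM, and Gene22935 of 50.2, 101, 105 and 887 TPM. For Gene22935 both intermediates were about level, with 92.6 to 123 TPM in F. ramosissima and 92.3 to 110 TPM in F. sonorensis.

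The ratio of the F. trinervia to the F. robusta control mean ran between 10.4 and 517. The highest ratio belonged to Gene24085, whose F. robusta level was the lowest of the set. Gene24085 had 369, 403 and 298 TPM in the F. trinervia controls and 0.39, 0.90 and 0.78 TPM in the F. robusta controls. A ratio against so low a level is imprecise, since the reads behind 0.69 TPM are unknown. Gene19186 followed with a ratio of 97.0 and Gene22336 with 89.7. Gene22336 had control means of 3.60, 16.1, 147 and 323 TPM along the series, with a wide spread in F. ramosissima (148, 214 and 78.3 TPM). Gene09328 and Gene05193 also belonged to the 6 with the highest ratio, beside Gene29481 above. Gene05193 had the widest relative spread of the set in F. trinervia and F. ramosissima: its F. trinervia controls had 125, 34.1 and 186 TPM and its F. ramosissima controls 29.4, 33.3 and 244 TPM. The difference between F. trinervia and F. ramosissima in Gene05193 therefore did not exceed the spread between libraries.

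The climb was spread unevenly over the 3 steps of the series. On the log2(TPM + 1) scale in control air, the largest step was from F. robusta to F. sonorensis in 8 genes, from F. sonorensis to F. ramosissima in 5 and from F. ramosissima to F. trinervia in 8. In 18 of the 21 genes a single step held over 50% of the climb (8, 3 and 7 genes, in the order of the steps). The median step was 1.77 from F. robusta to F. sonorensis, 0.88 from F. sonorensis to F. ramosissima and 1.80 from F. ramosissima to F. trinervia. These steps were measured on deposited TPM only. At low CO2 the median difference of the graded genes depended on the scaling. Median-of-ratios scaling, which centres the ratio of each library to the average library, moved it from 0.91 to 2.28 for F. ramosissima minus F. sonorensis. For F. trinervia minus F. ramosissima it went from 1.87 to 1.10. The control steps of single genes were not measured on that scale, but the control levels beneath them moved. The summed control TPM of the set went from 1729 to 964 in F. sonorensis and from 5359 to 8726 in F. ramosissima. In F. trinervia it went from 29814 to 26347, and 11 of the 21 genes still met the rule. The control steps thus depended on the scaling, while the change in their split over the genes was not measured. On deposited TPM most genes of the set thus did not climb evenly, although their means were in order.

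Among the genes that climbed early, Gene03614 had 89.4% of its climb in the first step, with control libraries of 241, 166 and 172 TPM in F. sonorensis and 7.71, 4.06 and 24.2 TPM in F. robusta. Its F. trinervia controls (269, 331 and 220 TPM) and F. ramosissima controls (242, 258 and 220 TPM) overlapped. Gene22403 had 78.1% and Gene17203 71.4% of the climb in the first step. Gene22403 was at 20.8, 29.0 and 31.9 TPM in the F. sonorensis controls and 1.89, 1.72 and 3.30 TPM in the F. robusta controls. Gene17203 stood at 43.9, 60.0 and 44.2 TPM in F. sonorensis and 7.55, 8.66 and 5.44 TPM in F. robusta, and its F. trinervia and F. ramosissima controls overlapped. These genes were thus already well above F. robusta in the first of the intermediates. Such a separation was common, since all F. sonorensis controls lay above those of F. robusta in 58.1% of 9264 genes. Those genes had a mean of at least 1 TPM at low CO2 in each of F. sonorensis, F. ramosissima and F. trinervia.

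Among the genes that climbed between the intermediates, Gene03064 had 58.3% of its climb in that step, Gene29493 55.9% and Gene22336 51.6%. Gene03064 had 51.4, 56.4 and 40.4 TPM in the F. ramosissima controls and 7.37, 9.72 and 9.21 TPM in the F. sonorensis controls. Its F. trinervia controls, with 60.1, 79.6 and 57.0 TPM, lay just above the F. ramosissima controls, and the groups did not overlap. Gene24085 also had its largest step here, with 182, 99.9 and 97.6 TPM in F. ramosissima and 9.59, 5.70 and 13.4 TPM in F. sonorensis.

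Among the genes that climbed late, Gene22935 had 74.6% of its climb in the last step, Gene19186 74.2% and Gene04554 94.3%. The Gene04554 controls had 6.34, 4.88 and 6.92 TPM in F. robusta, 5.85, 6.65 and 7.50 TPM in F. sonorensis, 8.31, 5.64 and 7.24 TPM in F. ramosissima and 80.2, 67.1 and 70.6 TPM in F. trinervia. Gene04554 was therefore a gene of 2 levels, low in 3 species and high in F. trinervia, and its order among the first 3 species lay within the spread of the libraries. In Gene22890 the intermediates were level, with control means of 18.51 TPM in F. ramosissima and 18.49 TPM in F. sonorensis. On the log scale its step between the intermediates was slightly negative, -0.01.

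**Figure D2:**
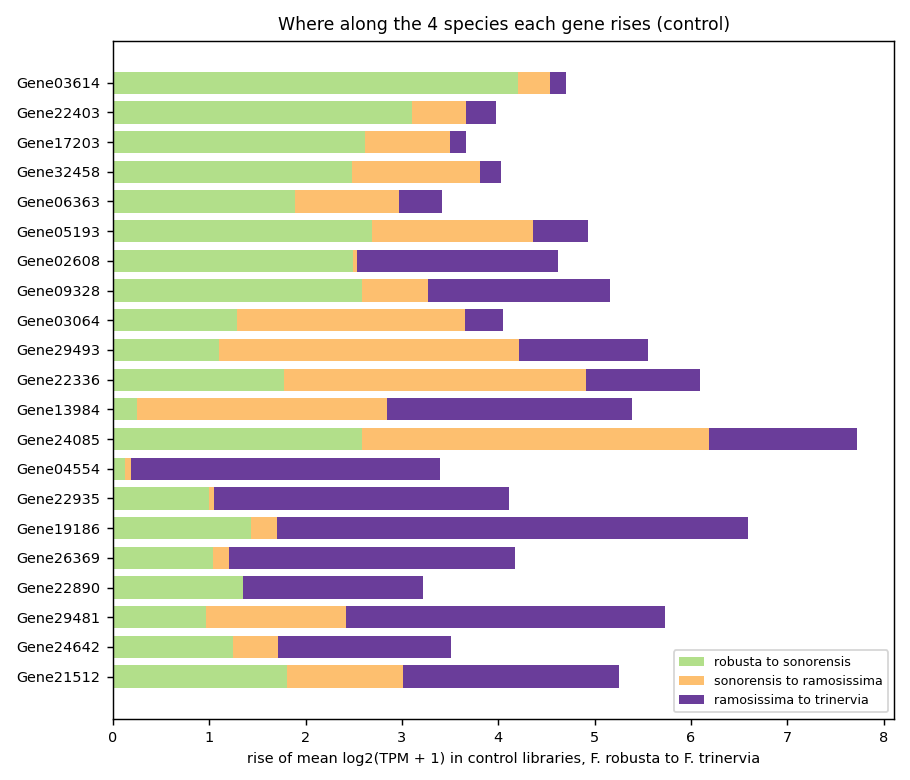
Climb of mean log2(TPM + 1) in the control libraries for each of the 21 genes (horizontal axis), split into the step from F. robusta to F. sonorensis (green), F. sonorensis to F. ramosissima (orange) and F. ramosissima to F. trinervia (purple). Genes are grouped by their largest step, which was the first in 8 genes, the second in 5 and the third in 8.

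The control libraries of neighbouring species separated without overlap at all 3 steps in 7 of the 21 genes: Gene24085, Gene29481, Gene29493, Gene21512, Gene03064, Gene22403 and Gene24642. Of the 9264 genes with a mean of at least 1 TPM in each of F. sonorensis, F. ramosissima and F. trinervia at low CO2, 0.378% did so. Taken by step, the F. sonorensis controls all lay above the F. robusta controls in 19 genes, the F. ramosissima above the F. sonorensis controls in 13, and the F. trinervia above the F. ramosissima controls in 15. The share of the same 9264 genes with such a separation was 58.1%, 9.94% and 57.8%. The rule used these libraries, so nothing is read from the comparison.

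The rule did not use the 9 low CO2 libraries of F. sonorensis, F. ramosissima and F. trinervia, and in these the order of the 3 species was tested. They come from the same species and reference as the controls, so they repeat the measurement and not the comparison of references. The rule also asked for this order in the controls of these species. The counts here and in the fit below therefore show only whether that order was kept at low CO2. They give the order no independent support. The low CO2 means were in the order F. sonorensis, F. ramosissima, F. trinervia in 14 of the 21 genes, against 7.42% of the 9264 genes tested. With F. robusta included, whose low CO2 libraries the rule used in part, 11 of the 21 genes had the whole order, against 3.15%. All low CO2 libraries of F. trinervia lay above all those of F. sonorensis in 21 of 21 genes (16.8% of all genes tested). They lay above those of F. ramosissima in 12 genes (48.8%), and those of F. ramosissima above those of F. sonorensis in 15 (13.1%). The counts over the 21 genes include Gene05193, which the filter behind the 9264 genes leaves out. Its lowest F. trinervia low CO2 library had 0.98 TPM, against at most 0.75 TPM in F. sonorensis at low CO2. On deposited TPM the counts for F. trinervia and for F. ramosissima above F. sonorensis were well above the background share. That for F. trinervia above F. ramosissima was close to it. These counts of separate libraries were not repeated on another scaling, so whether the contrast holds there was not tested. In the fit below, the calls over all genes changed with the scaling. Against F. robusta, all F. trinervia low CO2 libraries were higher in 20 genes (43.2% of all genes) and all F. sonorensis low CO2 libraries in 17 (66.7%).

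Of the 21 genes, 20 passed the filter on low values in this fit, and Gene05193 did not, because of its low level in F. sonorensis. In limma on log2(TPM + 1), with Benjamini-Hochberg adjustment over all 9264 genes and a threshold of 0.05, F. trinervia was above F. sonorensis in 20 of the 20 genes, against 14.7% of all genes called higher and 43.5% called lower. The median difference was 2.95 in the graded genes and -0.45 over all genes. F. ramosissima was above F. sonorensis in 12 genes and below in 0, against 11.1% and 62.5% of all genes, with medians of 0.91 in the graded genes and -0.98 over all genes. No gene of the set was below F. sonorensis in F. ramosissima at an adjusted p below 0.05, and the 12 genes at an unadjusted p below 0.05 were all higher, against 75.3% of all genes at that p in either direction. F. trinervia was above F. ramosissima in 12 genes and below in 1, against 47.8% and 15.8% of all genes, with medians of 1.87 and 0.55. Without F. trinervia low CO2 replicate 2, the library that stood apart, F. trinervia was still above F. sonorensis in 20 genes, above F. ramosissima in 12 and below it in 1. The share of all genes called in that fit is not given here, so these counts are not set against a background.

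These differences between species depended on the scaling. With median-of-ratios scaling, which centres the ratio of each library to the average library, the calls over all genes were 2462 higher and 3291 lower for F. trinervia minus F. ramosissima (4429 and 1462 on deposited TPM), 3632 and 2387 for F. ramosissima minus F. sonorensis (1030 and 5793), and 2819 and 2357 for F. trinervia minus F. sonorensis (1364 and 4033). The median difference over all genes became -0.12, 0.21 and 0.06 in the same order of comparisons. With quantile normalization the calls for F. trinervia minus F. sonorensis were 2163 higher and 3238 lower. In the graded genes, F. trinervia stayed above F. sonorensis in 20 of 20 under median-of-ratios scaling. F. ramosissima was above F. sonorensis in 19 under that scaling. F. trinervia was then above F. ramosissima in 11 genes and below it in 7, which were Gene03064, Gene03614, Gene06363, Gene17203, Gene22336, Gene24085 and Gene32458. All 7 had their largest control step before F. trinervia. Of these 7, Gene24085 was called lower on deposited TPM as well, while the other 6 were called lower only under median-of-ratios scaling of these 2 scales.

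**Figure D3:**
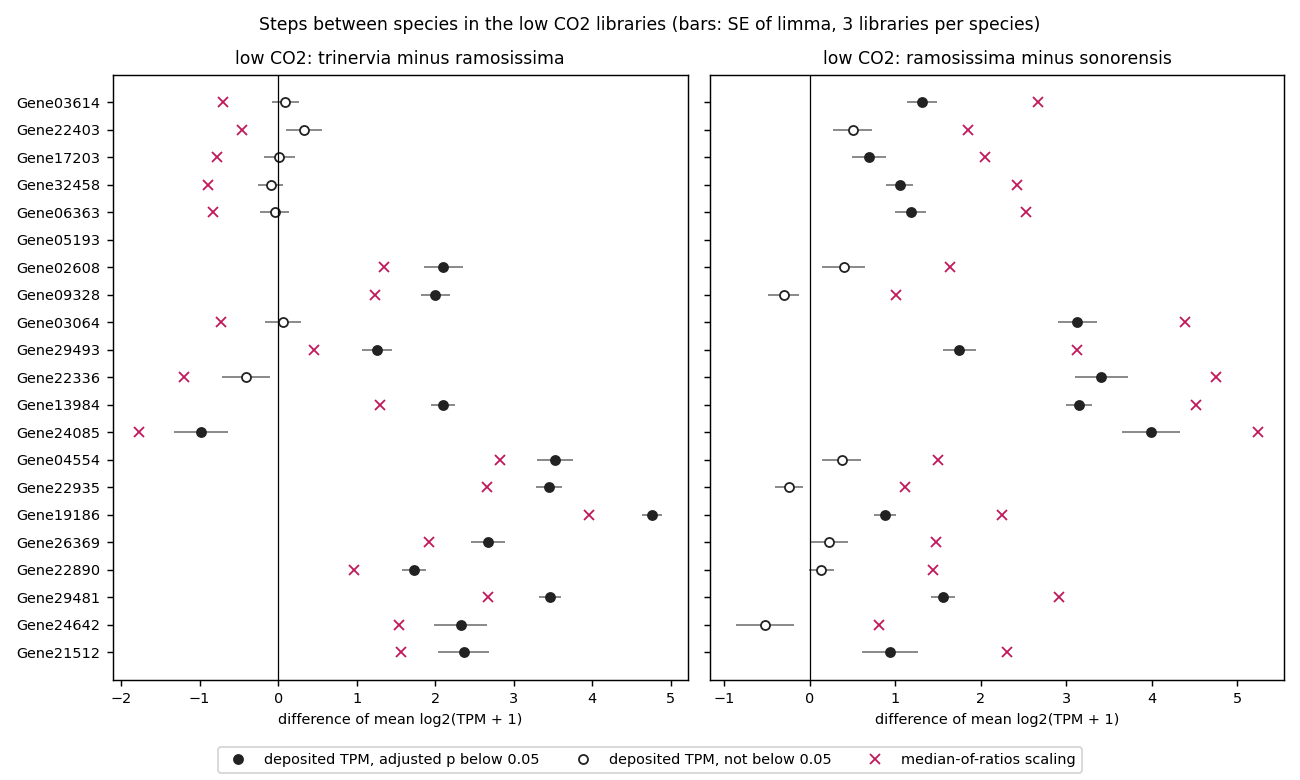
Differences of mean log2(TPM + 1) between neighbouring species in the low CO2 libraries, F. trinervia minus F. ramosissima (left) and F. ramosissima minus F. sonorensis (right), with the SE of limma over 3 libraries per species. Filled circles passed an adjusted p of 0.05 on deposited TPM, open circles did not, and crosses give the same difference after median-of-ratios scaling; 12 genes passed upward in each panel and Gene24085 passed downward on the left.

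The genes differed in which of the steps at low CO2 passed the test. On deposited TPM both steps passed upward in 5 of the 20 genes, only the last in 7, only the one before it in 7 and neither in 1, against 1.35%, 46.5%, 9.77% and 42.4% of all genes. Under median-of-ratios scaling the split was 10, 1, 9 and 0, against 3.12%, 23.5%, 36.1% and 37.3% of all genes, so which step passed depended on the scaling. The 5 genes with both steps on deposited TPM were Gene13984, Gene19186, Gene21512, Gene29481 and Gene29493. All 5 were among the 6 most abundant of the set in F. trinervia. This overlap also depended on the scaling. The 10 genes with both steps after median-of-ratios scaling held Gene13984, Gene19186, Gene21512, Gene22935 and Gene29481 of those 6, but not Gene29493. The rest of the 10 were less abundant: Gene02608, Gene04554, Gene09328, Gene22890 and Gene26369. Gene13984 had 78.3, 59.4 and 76.7 TPM in F. sonorensis, 650, 634 and 631 TPM in F. ramosissima and 2954, 2753 and 2511 TPM in F. trinervia. The 3 species did not overlap, with differences of 2.10 (SE 0.15, adjusted p = 2.54e-06 in limma) for F. trinervia minus F. ramosissima and 3.15 (SE 0.15, adjusted p = 1.6e-07) for F. ramosissima minus F. sonorensis. Gene19186 was 4.76 higher on the log2 scale in F. trinervia than in F. ramosissima (SE 0.12, adjusted p = 1.63e-08 in limma) and 0.88 higher in F. ramosissima than in F. sonorensis (SE 0.12, adjusted p = 9.87e-05).

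Gene29481 had 42.1, 42.1 and 42.4 TPM in F. sonorensis, 123, 132 and 124 TPM in F. ramosissima and 1573, 1326 and 1322 TPM in F. trinervia at low CO2. Its levels were even within each species and far apart between them, and both steps passed in every one of the 16 alternatives. Gene21512 had 95.3, 170 and 118 TPM in F. sonorensis, 246, 224 and 250.0 TPM in F. ramosissima and 1352, 727 and 1922 TPM in F. trinervia. Its step from F. sonorensis to F. ramosissima, 0.94 (SE 0.33, adjusted p = 0.0226 in limma), was the least certain of the 5 and passed in 10 of 16 alternatives, with adjusted p between 0.000956 and 0.0883. For Gene29493 the last step, 1.26 (SE 0.19, adjusted p = 0.000292 in limma), was 0.46 (adjusted p = 0.141) under median-of-ratios scaling.

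On deposited TPM only the step to F. trinervia passed in 7 genes: Gene02608, Gene04554, Gene09328, Gene22890, Gene22935, Gene24642 and Gene26369. Gene04554 had 4.05, 5.36 and 2.96 TPM in F. sonorensis, 6.11, 4.89 and 5.60 TPM in F. ramosissima and 69.0, 62.2 and 95.1 TPM in F. trinervia, a last step of 3.53 (SE 0.23, adjusted p = 1.16e-06 in limma). The F. trinervia libraries lay apart, while those of both intermediates overlapped. Gene22935 had 118, 142 and 121 TPM in F. sonorensis, 114, 89.9 and 118 TPM in F. ramosissima and 1309, 1095 and 1120 TPM in F. trinervia. Here the libraries of both intermediates overlapped at low CO2 as in control. Under median-of-ratios scaling 6 of these 7 genes, all but Gene24642, also passed from F. sonorensis to F. ramosissima, Gene04554 with 1.502 (adjusted p = 0.00111 in limma) and Gene22935 with 1.12 (adjusted p = 0.0028). In 7 further genes only the step from F. sonorensis to F. ramosissima passed upward: Gene03064, Gene03614, Gene06363, Gene17203, Gene22336, Gene24085 and Gene32458. Gene03064 had 61.3, 58.9 and 72.3 TPM in F. ramosissima, against 4.95, 9.51 and 5.51 TPM in F. sonorensis, a step of 3.13 (SE 0.23, adjusted p = 1.57e-06 in limma). In Gene22403 neither step passed, although F. trinervia exceeded F. sonorensis by 0.83 (SE 0.23, adjusted p = 0.0101 in limma).

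In 10 of the 21 genes the low CO2 means departed from the order of the 4 species, which 3.15% of the 9264 genes had. The largest departure was that of Gene05193, which was 1.75 lower on the log2(TPM + 1) scale in F. sonorensis than in F. robusta at low CO2. The next was Gene24085, which was lower in F. trinervia than in F. ramosissima by -0.98 (SE 0.34, adjusted p = 0.028 in limma). That call was lost in 5 of 16 alternatives, with adjusted p between 0.000305 and 0.103 over all of them. Gene04554 followed, with F. sonorensis below F. robusta by -0.78. The F. sonorensis low CO2 libraries of Gene04554 (2.96 to 5.36 TPM) all lay below those of F. robusta (6.35 to 8.96 TPM).

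The response to low CO2 was tested in each species alone. These fits share the control libraries with the rule that chose the genes, so the responses and the choice of the genes are not independent. In F. sonorensis, 3 of the 21 genes rose and 2 fell, against 4.54% and 15.4% of the 14436 genes tested. Of the 21 genes, 6 had all low CO2 libraries above the controls (10.8% of all genes) and 4 had all below (31%). Their median change was 0.02, against -0.17 over all genes. Median-of-ratios scaling left the same counts of 3 and 2 in the set, while the calls over all genes were 1234 higher and 1470 lower, against 656 and 2225 on deposited TPM.

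Gene29493 rose the most in F. sonorensis. It had 597, 1027 and 745 TPM at low CO2, against 221, 247 and 297 TPM in control. The groups did not overlap, and the change was 1.60 (SE 0.22, adjusted p = 0.00349 in limma). It brought Gene29493 nearer to its F. ramosissima level, which had 2479, 2665 and 2620 TPM at low CO2 and 1934, 2627 and 2074 TPM in control. Gene24642 had 51.7, 24.5 and 60.5 TPM at low CO2, against 16.8, 11.7 and 17.2 TPM in control, a change of 1.44 (SE 0.33, adjusted p = 0.02). Its groups did not overlap either, but the call held in only 9 of 13 alternatives, with adjusted p up to 0.121. Gene32458 had 458, 387 and 423 TPM at low CO2, against 286, 256 and 265 TPM in control, a change of 0.65 (SE 0.14, adjusted p = 0.0154). This call held in 11 of 13 alternatives, and was lost without low CO2 replicate 1 (adjusted p = 0.084) or replicate 3 (0.0717).

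Gene05193 fell the most in F. sonorensis. It had 0.71, 0.56 and 0.75 TPM at low CO2, against 18.1, 17.4 and 21.6 TPM in control. The change was -3.58 (SE 0.17, adjusted p = 8.1e-05 in limma), and on this scale it understates the fall of a gene that ends below 1 TPM. Its values in the other species varied widely between libraries, with 75.5, 11.6 and 38.4 TPM at low CO2 in F. ramosissima and 112, 0.98 and 57.8 TPM at low CO2 in F. trinervia. The 0.98 TPM belongs to F. trinervia low CO2 replicate 2, the library that stood apart from its group. Gene03614 had 79.6, 77.8 and 84.1 TPM at low CO2, against 241, 166 and 172 TPM in control, a change of -1.23 (SE 0.17, adjusted p = 0.00371). The calls of Gene29493, Gene05193 and Gene03614 held in all 13 alternatives.

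In F. ramosissima, no gene of the set passed the test in either direction in limma, against 0.101% of the 15899 genes tested called higher and 0.189% called lower. An unadjusted p below 0.05 was met by 3 of the 21 genes, against 9.68% of all genes. Every low CO2 library exceeded the controls in 4 genes (6.77% of all genes) and lay below them in 1 (7.36%). The median change was 0.13, against 0.00 over all genes. The 3 genes at an unadjusted p below 0.05 were Gene22403, Gene22336 and Gene13984, with differences of 0.58, 0.86 and 0.37 and adjusted p of 0.359, 0.435 and 0.489. Gene13984 had 650, 634 and 631 TPM at low CO2, against 466, 458 and 569 TPM in control. Over all genes median-of-ratios scaling called 7 higher and 27 lower, against 16 and 30 on deposited TPM.

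In F. trinervia, 0 genes of the set rose and 1 fell, against 0.18% and 1.41% of the 13873 genes tested. An unadjusted p below 0.05 was met by 4 of the 21 genes, against 17.1% of all genes. Every low CO2 library exceeded the controls in 4 genes (6.7% of all genes) and lay below them in 1 (14.6%). The median change was 0.04, against -0.12 over all genes. The gene that fell was Gene24085, with 50.8, 89.4 and 37.2 TPM at low CO2, against 369, 403 and 298 TPM in control. The groups lay far apart, and the change was -2.65 (SE 0.32, adjusted p = 0.0142 in limma). The change kept its size in all 13 alternatives, between -2.995 and -2.37, and its call held in 10 of them, with adjusted p between 0.000681 and 0.161. It was lost without F. trinervia control replicate 1 (adjusted p = 0.0865) or control replicate 3 (0.0652). Without low CO2 replicate 2, the library that stood apart, Gene24085 changed by -2.995 (adjusted p = 0.000681), and Gene22403 was also called, higher by 0.74 (adjusted p = 0.0373). Over all genes the calls without that library were 388 higher and 1741 lower, against 25 and 195 with it. With all libraries, quantile normalization gave 35 called higher and 117 lower over all genes.

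The 6 most abundant genes of the set did not pass the test in F. trinervia. Gene19186 differed by 0.23, Gene29493 by 0.16, Gene13984 by -0.07, Gene29481 by 0.23, Gene21512 by 0.10 and Gene22935 by 0.40 on the log2 scale in limma. Gene22935 had 1309, 1095 and 1120 TPM at low CO2, against 829, 847 and 985 TPM in control, without overlap and at an adjusted p of 0.272. Gene24642 had 104, 212 and 154 TPM at low CO2, against 81.8, 81.1 and 65.4 TPM in control, a difference of 0.98 (SE 0.28, adjusted p = 0.129).

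**Figure D4:**
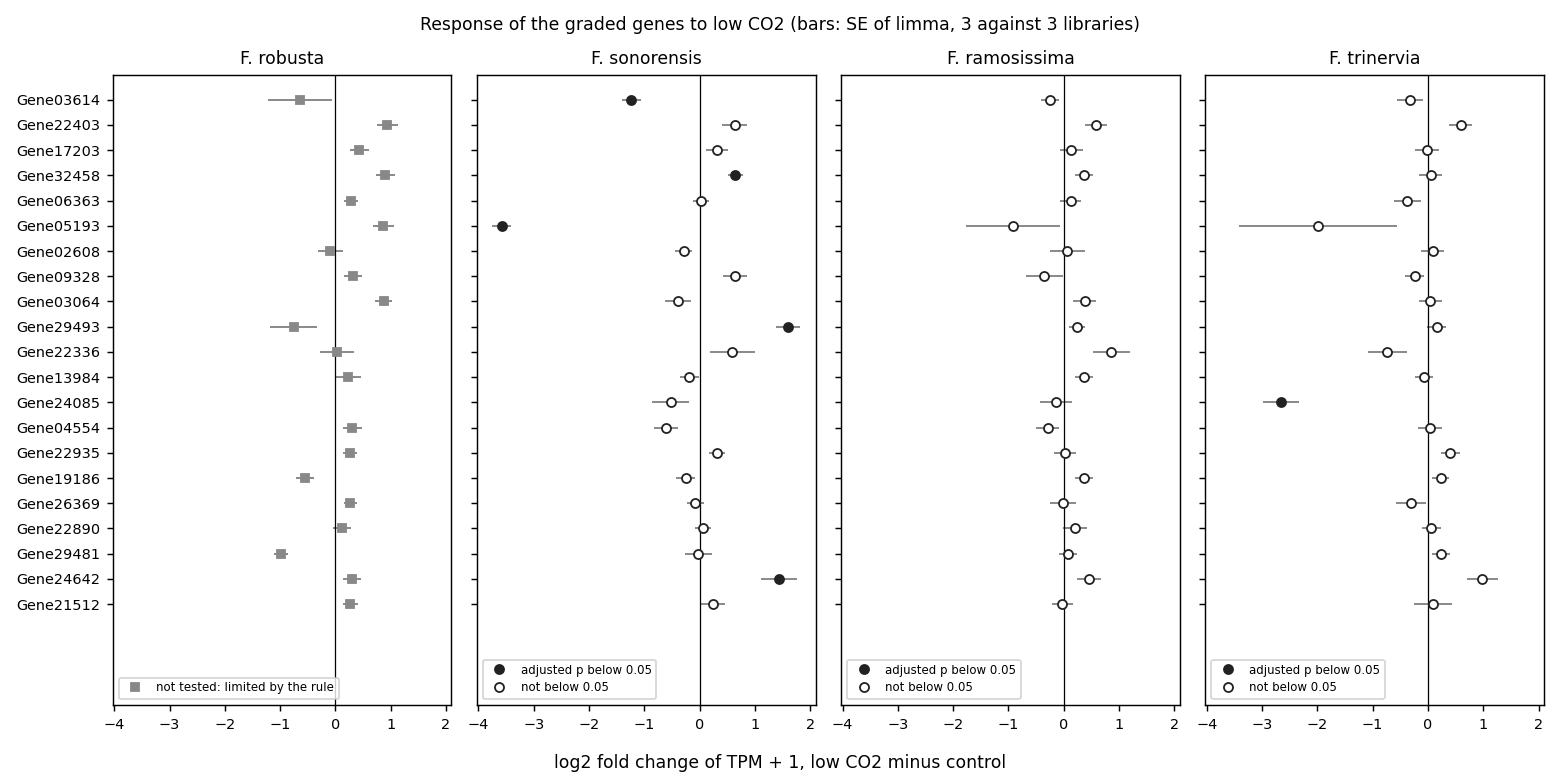
Log2 fold change of TPM + 1, low CO2 minus control, of each of the 21 graded genes in the 4 species, with the SE of limma over 3 low CO2 and 3 control libraries. Filled circles passed an adjusted p of 0.05; grey squares in F. robusta were limited by the rule and were not tested (Gene24085 is not drawn there, as its mean was below 1 TPM); the panels hold 5 filled circles for F. sonorensis, 0 for F. ramosissima and 1 for F. trinervia.

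In F. robusta the rule kept every change between -1 and 1, so its values are given as a description. Every low CO2 library exceeded the controls in 10 genes and lay below them in 2, beside 11.1% and 49.3% of the 14194 genes tested. The rule used this contrast, so nothing is read from either count. Gene29481 had 9.39, 11.1 and 10.7 TPM at low CO2, against 22.2, 22.5 and 19.9 TPM in control. Gene19186 had 111, 97.8 and 116 TPM at low CO2, against 145, 191 and 142 TPM in control. These were the 2 genes with all low CO2 libraries below the controls, and both are among the 6 most abundant genes of the set in F. trinervia. Gene32458 had 90.2, 90.2 and 88.5 TPM at low CO2, against 42.9, 41.6 and 59.5 TPM in control. Gene22403 was the one gene whose low CO2 libraries exceeded the controls without overlap in each of the 4 species. It had 5.68, 5.01 and 4.96 TPM at low CO2, against 1.89, 1.72 and 3.30 TPM in control, in F. robusta. In F. sonorensis it had 48.4, 32.4 and 47.8 TPM at low CO2, against 20.8, 29.0 and 31.9 TPM in control. In these 2 species its lowest low CO2 library was thus above its highest control. In F. ramosissima the values were 65.5, 48.8 and 68.0 TPM at low CO2, against 40.4, 40.6 and 39.0 TPM in control, and in F. trinervia 78.6, 61.2 and 89.9 TPM at low CO2, against 45.0, 57.1 and 48.0 TPM in control. Gene22403 passed the test in none of the 3 species in which it was tested with all libraries, with adjusted p (limma) of 0.0802 for F. sonorensis, 0.359 for F. ramosissima and 0.204 for F. trinervia. This pattern was picked out after the values were seen, and its share over all genes was not counted. The rule used the change in F. robusta and the controls of all 4 species, so nothing is read from it.

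Whether the response differed between species was tested in one limma fit over the 18 libraries of F. sonorensis, F. ramosissima and F. trinervia and 9474 genes. For F. trinervia minus F. sonorensis, 0 genes of the set were higher and 2 lower, against 2.69% and 2.03% of all genes. They were Gene24085, with a difference in response of -2.13 (SE 0.49, adjusted p = 0.0213), and Gene29493, with -1.45 (SE 0.27, adjusted p = 0.00638). For F. ramosissima minus F. sonorensis, 0 were higher and 1 lower, against 1.36% and 0.464%, which was Gene29493 with -1.36 (SE 0.27, adjusted p = 0.0162). For F. trinervia minus F. ramosissima, 0 were higher and 1 lower, against 0.306% and 0.507%, which was Gene24085 with -2.52 (SE 0.49, adjusted p = 0.0245). An unadjusted p below 0.05, in either direction, was met by 8 genes of the set for F. trinervia minus F. sonorensis (18.7% of all genes), 7 for F. ramosissima minus F. sonorensis (15.6%) and 2 for F. trinervia minus F. ramosissima (12.7%). On these values Gene29493 rose more in F. sonorensis than in either of the other species, and Gene24085 fell more in F. trinervia than in either intermediate. This fit also holds the control libraries that chose the genes. The rule asked for the highest control mean in F. trinervia and for a lower one in F. sonorensis than in F. ramosissima. These differences and the choice of the genes are therefore not independent.

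Of these 4 differences, that of Gene29493 between F. trinervia and F. sonorensis passed in all 25 alternatives. Gene29493 between F. ramosissima and F. sonorensis passed in 24 of 25, and was lost without F. ramosissima low CO2 replicate 3 (adjusted p = 0.0563). Gene24085 passed in 21 of 25 between F. trinervia and F. sonorensis (adjusted p up to 0.063) and in 19 of 25 between F. trinervia and F. ramosissima (up to 0.0906). Median-of-ratios scaling gave 230 genes called higher and 329 lower for F. trinervia minus F. sonorensis (255 and 192 on deposited TPM), and 64 and 62 for F. ramosissima minus F. sonorensis (129 and 44). For F. trinervia minus F. ramosissima quantile normalization gave 68 and 55 (29 and 48 on deposited TPM). Without F. trinervia low CO2 replicate 2, Gene24085 differed by -2.47 (adjusted p = 0.00453) for F. trinervia minus F. sonorensis and by -2.86 (adjusted p = 0.00367) for F. trinervia minus F. ramosissima, Gene29493 by -1.39 (adjusted p = 0.00713) for F. trinervia minus F. sonorensis, and Gene03614 was added with 0.96 (adjusted p = 0.0444) for the same pair.

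Summed over the 21 genes, the level in F. robusta was 537 ± 29.2 TPM at low CO2 and 571 ± 63.6 TPM in control (SD, n = 3 each, as for the sums that follow). In F. sonorensis it was 2313 ± 181 TPM at low CO2 and 1729 ± 138 TPM in control, and in F. ramosissima 6259 ± 180 TPM at low CO2 and 5359 ± 281 TPM in control. In F. trinervia it was 33062 ± 2314 TPM at low CO2 and 29814 ± 2001 TPM in control. Shares were taken of the TPM summed over the 29562 genes of each library. The set thus held between 3.38 and 3.73% of that total in the F. trinervia low CO2 libraries and between 2.98 and 3.37% in the F. trinervia controls. In the F. robusta libraries it held between 0.0545 and 0.0669%. A single gene made up much of the F. trinervia sum: Gene19186 held between 52.7 and 55.6% of it at low CO2 and between 47.5 and 56.0% in control. In all 6 F. ramosissima libraries and the 3 F. sonorensis low CO2 libraries the most abundant gene of the set was Gene29493. In the F. sonorensis controls it was Gene19186. The low CO2 and control sums did not overlap in F. sonorensis (2137 to 2498 TPM against 1571 to 1826 TPM) or in F. ramosissima (6103 to 6456 TPM against 5145 to 5677 TPM), and overlapped in F. robusta and F. trinervia. Since the genes were chosen by their control values, no test was made of these sums.

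**Figure D5:**
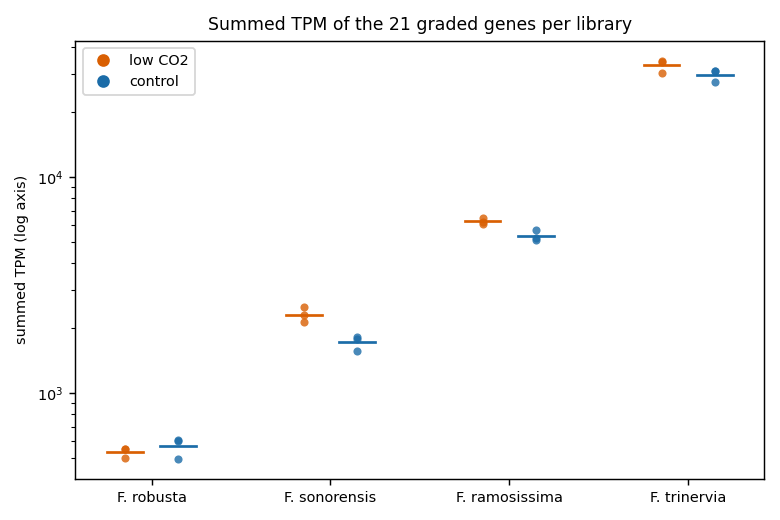
Summed TPM of the 21 graded genes in each library (log axis) for the 4 species, low CO2 (orange, left) and control (blue, right), with bars for the mean of 3. The means at low CO2 run from 537 TPM in F. robusta to 33062 TPM in F. trinervia, and the groups separate in F. sonorensis and F. ramosissima.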

How the data were processed

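Leaf RNA of 4 Flaveria species was sequenced by the authors with paired reads of 150 bp, and their deposited table gives TPM (a length-corrected level relative to the library total) for 29562 genes and 24 libraries. The submitters' processing notes name RSEM and edgeR, without versions. No source used here states the read reference or how genes of different species came to share a row. TPM keep no depth, so precision was taken from the spread between 3 replicates per group. Each column was matched to its library by the labels, none was left out, and 807 genes were at 0 in all 24 libraries. At most 0.1825% of genes of 10 TPM or more were identical between 2 libraries of a group.

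Log2(TPM + 1) was tested with limma 3.58.1 in R 4.3.3 (lmFit, eBayes with trend) for genes with a mean of at least 1 TPM, within each species over its 6 libraries, and in each species of the fit for the order and difference fits. P-values were two-sided and Benjamini-Hochberg adjusted over all genes tested, with a threshold of 0.05. Fold changes on this scale understate those of low genes. The scripts were tested on simulated data. Alternatives were a pseudocount of 0.1, no filter, a minimum of 5 TPM, a prior spread without trend, quantile normalization, median-of-ratios scaling, the replicate number as a block and leaving out each library. The genes named were those highest in F. trinervia, highest in ratio, with the largest share of their climb in one step (3 per step), called changed without overlap, nearest the limits, differing in response, or farthest from the order at low CO2. Other names were chosen after their values were seen. The members, the rule and the lists were chosen with earlier results of these data known. Plots were made with matplotlib 3.10.9 in Python 3.11.15.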

Additional observations from a re-analysis of the deposited data

Results flagged for a closer look

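The response to low CO2 of 2 graded genes differed between species in the limma fit over 18 libraries. The control libraries of this fit also chose the genes, so the differences are not independent of that choice. For Gene24085 the difference in response was -2.13 (SE 0.49, adjusted p = 0.0213) for F. trinervia minus F. sonorensis and -2.52 (SE 0.49, adjusted p = 0.0245) for F. trinervia minus F. ramosissima. For Gene29493 it was -1.45 (SE 0.27, adjusted p = 0.00638) for F. trinervia minus F. sonorensis and -1.36 (SE 0.27, adjusted p = 0.0162) for F. ramosissima minus F. sonorensis.

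In 3 further genes every low CO2 library of one species lay on one side of its controls and every low CO2 library of F. robusta on the other. The response of Gene19186 in F. ramosissima minus that in F. robusta was 0.91, that of Gene29481 in F. trinervia minus that in F. robusta 1.22, and that of Gene05193 in F. sonorensis minus that in F. robusta -4.45, all on the log2(TPM + 1) scale. These 3 differences were not tested, since the change in F. robusta was limited by the rule that chose the genes.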

How the results depend on the processing

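Which genes belong to the set depended on the scaling. Median-of-ratios scaling gave 30 genes, of which 11 were shared with the 21, group medians gave 20 with 15 shared, and leaving out one library in turn gave 18 to 23. Of the 21 genes, 11 were kept in all 15 settings that left out a library and 7 in every setting: Gene24085, Gene19186, Gene22336, Gene09328, Gene21512, Gene26369 and Gene24642. Gene05193 and Gene22890 were each kept in 11 of the 15.

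Without a filter on low values, 0 genes of the set fell in F. trinervia, 0 were lower in F. trinervia than in F. ramosissima at low CO2, and 1 had a higher response in F. ramosissima than in F. sonorensis. Median-of-ratios scaling gave 7 genes lower in F. trinervia than in F. ramosissima and 19 higher in F. ramosissima than in F. sonorensis. Over all 9264 genes it called 3291 and 3632 in these directions. Quantile normalization gave 1 gene with a higher response in F. trinervia than in F. sonorensis. Leaving out one library in turn, the genes that rose in F. sonorensis numbered 1 to 4, those that rose in F. trinervia 0 to 1 and those that fell there 0 to 1. Over all genes, 214 to 831 were then called higher in F. sonorensis. In F. trinervia 0 to 388 were called higher and 17 to 1741 lower. At low CO2, F. trinervia was below F. ramosissima in 0 to 1 genes and F. ramosissima below F. sonorensis in 0 to 1. A higher response in F. trinervia than in F. sonorensis was called in 0 to 1 genes and a lower one in 1 to 2. A lower response was called in 0 to 1 genes both for F. ramosissima minus F. sonorensis and for F. trinervia minus F. ramosissima. For the other counts of this paragraph the calls over all genes are not given, so nothing is read from them. Where a scaling or normalization moved a call, the cause was not tested, and in the other cases fewer libraries or another set of genes entered the fit.

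The difference at low CO2 of F. trinervia minus F. ramosissima turned under median-of-ratios scaling to -0.70 in Gene03614, -0.72 in Gene03064, -0.46 in Gene22403 and -0.77 in Gene17203, and under quantile normalization to 0.21 in Gene06363. That of F. ramosissima minus F. sonorensis turned under median-of-ratios scaling to 1.01 in Gene09328, 1.12 in Gene22935 and 0.81 in Gene24642. None of these had passed the test on deposited TPM.

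When single libraries were left out, the same difference of F. trinervia minus F. ramosissima ranged from -0.075 to 0.20 in Gene03614, -0.048 to 0.15 in Gene03064, -0.18 to 0.015 in Gene32458, -0.10 to 0.15 in Gene17203 and -0.21 to 0.10 in Gene06363, all without passing the test.

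Median-of-ratios scaling moved the summed TPM to 629 in F. robusta low CO2 and 490.02 in its control, 1529 and 964 in F. sonorensis, 10851 and 8726 in F. ramosissima, and 26347 in the F. trinervia control. Without the most abundant gene of each library the sums were 429 at low CO2 and 405 in control in F. robusta, 1523 and 1297 in F. sonorensis, 3671 and 3147 in F. ramosissima, and 15087 and 14380 in F. trinervia.

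The replicate numbers did not pair low CO2 with control libraries in every species. The correlation of deviations between libraries of the same number was between -0.32 and 0.47 over the 4 species. Only in F. ramosissima did each library correlate best with its own number (0.34, 0.47 and 0.10). Between F. ramosissima and F. trinervia at low CO2, libraries of the same number correlated at 0.38, 0.64 and 0.00. A replicate effect may thus be shared in part, and the fits without the block took the libraries as independent. With the replicate block, 3 genes rose and 2 fell in F. sonorensis, 0 changed in F. ramosissima and 1 fell in F. trinervia, as without it. Over all genes the block did change the calls. In F. sonorensis 418 were higher and 1673 lower, against 656 and 2225 without it. In F. ramosissima 77 were higher and 129 lower, against 16 and 30 without it. In F. trinervia 0 were higher and 23 lower, against 25 and 195, and Gene24085 had an adjusted p of 0.0435 in limma. F. ramosissima was then above F. sonorensis in 13 genes, with Gene22403 added (0.50, adjusted p = 0.0101 in limma), and in 1123 of all 9264 genes. Depth is unknown, so a level near 1 TPM, as that of Gene24085 in F. robusta, has no counting error here.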
